A study of Mus musculus with 7 samples.

Results

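The genes described here are 44 genes of mitosis, the stage of the cell cycle in which replicated chromosomes are separated and the cell divides. They were chosen by name: the main mitotic cyclins and their kinase, the kinases and checkpoint proteins that act on chromosomes, the kinetochore, the spindle motors, and the proteins of chromosome compaction, anaphase and cytokinesis. For 43 of the 44 the array had a probe set (a group of probes for a transcript) that named the gene alone, out of 19937 genes measured that way. Ccnb1, which encodes cyclin B1, was not analysed here. Of the 43 genes, 42 had 1 such probe set, and Top2a had 2, of which the brighter was used.

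Mitosis is driven by the kinase encoded by Cdk1 bound to A- and B-type cyclins. Most genes of this set are transcribed only late in the cell cycle, from G2 into mitosis, under the MuvB complex with B-Myb and FoxM1, and are repressed in resting cells by the related DREAM complex. In skin, dividing cells are found mainly in the basal layer of the epidermis and in the matrix of growing hair follicles, and their number rises in thickened epidermis.

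RNA was measured in tissue of mice with a knockout of Iqgap1, a scaffold protein of the Ras-ERK cascade, and of wild-type mice, on 7 Affymetrix Mouse Gene 1.0 ST arrays. All animals had a mixed C57BL/6 and 129 background, and the agent was topical 4OHT (4-hydroxytamoxifen, a ligand for tamoxifen-dependent proteins), with tissue from day 0 or day 6; the labels named no tamoxifen-dependent protein, no age and no tissue beyond mouse tissue. There were 2 knockout arrays at day 0, 1 wild-type array at day 0, 2 knockout arrays at day 6 and 2 wild-type arrays at day 6. Whether replicates came from separate mice was not stated. The spread behind each p-value is that of these samples, and in the knockout pairs it may be technical. Values are log2 expression values after RMA, so a difference of 1 is a 2-fold difference.

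The labels were checked first. Iqgap1 stood at 8.58 to 9.02 in the 4 knockout arrays and at 9.95 to 10.59 in the 3 wild-type arrays. Keratins of the epidermis were present on every array, with Krt5 between 12.14 and 12.79, the range of Krt14 was 11.71 to 12.89, and the means of 5 muscle markers (at least 9.54) and 6 fibroblast markers (at least 8.92) lay above the array medians throughout. That of 5 fat markers was 9.80 to 10.86 at day 0 and 5.36 to 6.54 at day 6. The deposited values held no detection calls. Over all 34760 probe sets the median value of an array was 5.61 to 5.79. Xist, which is transcribed from an inactivated X, had signal on 2 arrays, replicate 1 of wild type at day 0 (11.15) and at day 6 (10.30), and stood at 3.55 to 4.03 on the other 5, which had Y-linked signal instead. The 2 wild-type arrays of day 6 thus differed in Xist and Y-linked signal and were not repeats of 1 sample. For that pair the SD of the mitosis gene mean was 0.62. It was 0.15 for knockout at day 0 and 0.13 for knockout at day 6. The wild-type day 0 array also stood apart in hair genes. The mean of 12 markers of hair matrix and growing hair was 10.19 there, 6.67 in replicate 1 of wild type at day 6 and 5.55 to 5.95 on the other 5 arrays. Every comparison that uses the wild-type day 0 array rests on that single array.

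Averaged over the 43 mitosis genes, the knockout arrays of day 0 had 5.86 and 6.08. The single wild-type array of day 0 had 7.95. At day 6 the mean was 8.48 and 8.66 in knockout and 7.98 and 8.86 in wild type. The knockout arrays of day 0 were therefore the low pair, and the wild-type array of day 0 stood close to the lower of the wild-type arrays of day 6. For all 43 genes both knockout day 6 arrays lay above both knockout day 0 arrays, as they did for 42.2% of all genes. For all 43 the wild-type day 0 array lay above both knockout day 0 arrays, against 51.6% of all genes.

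**Figure D1:**
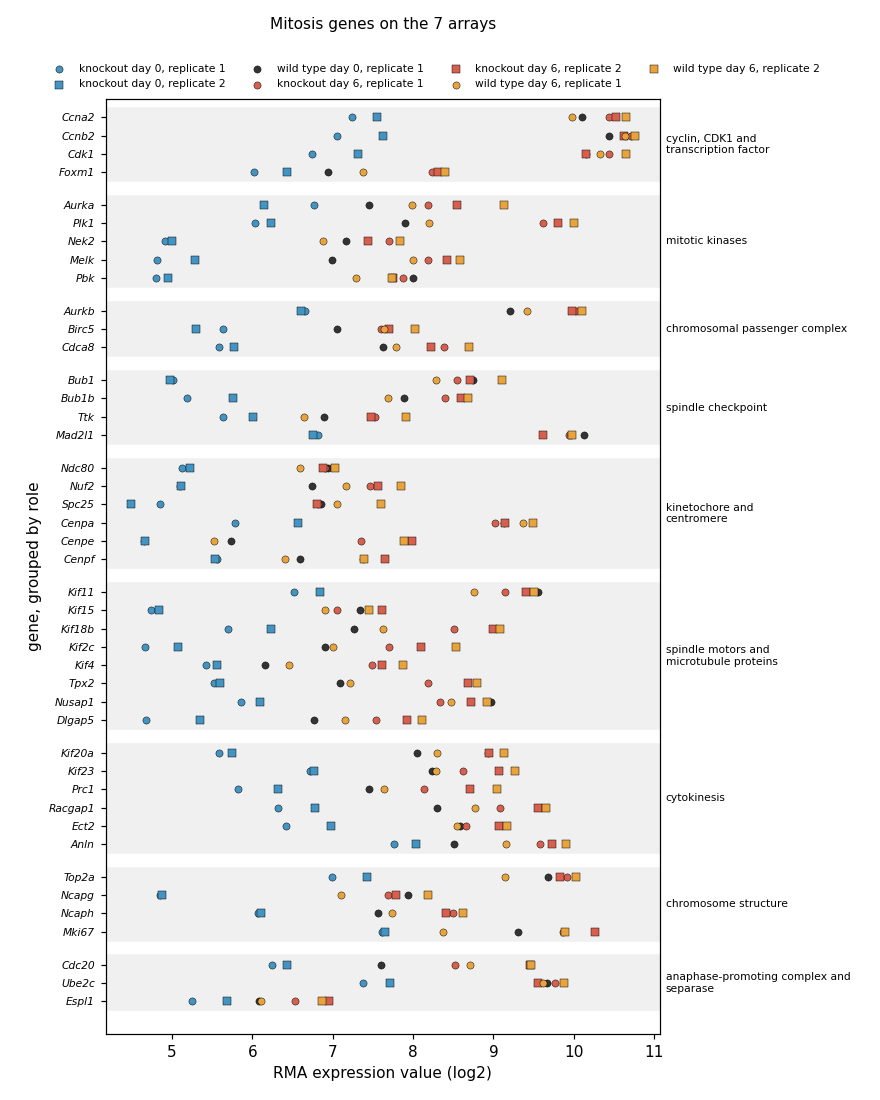
Each point is the log2 RMA value (horizontal axis) of a mitosis gene (rows, grouped by role) on 1 of 7 arrays; colour gives genotype and day, circles are replicate 1 and squares replicate 2. The blue points of the 2 knockout day 0 arrays lie lowest in every row, while the black point of the single wild-type day 0 array lies above them for all 43 genes.

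The day change in Iqgap1 knockout (n = 2 arrays against 2) was taken first, since all 4 of its arrays lacked Xist signal. All 43 mitosis genes rose at a limma adjusted p under 0.05 and none fell, while 7.24% of all 19937 genes rose and 9.07% fell. The median log2 change of the 43 was 2.62, with a range of 1.28 to 3.64, and that of all genes was 0.095. The change was at least 2 on the log2 scale for 37 genes and at least 3 for 11. The smallest rise was that of Espl1 and the largest fitted change that of Bub1. On both knockout arrays of day 0, 16 of the 43 genes lay below the median of all probe sets, Bub1 among them, and none did on both of day 6. With no detection calls, the levels of these 16 at day 0 are not shown to be above background, so their folds and their order by size are uncertain. Adjusted p lay between 0.000377 (Mad2l1) and 0.0322 (Espl1). Leaving out each array in turn left 36 to 43 of them past the threshold. In RNA of a whole tissue, more dividing cells and more of these transcripts per cell cannot be told apart.

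Among the regulators of mitotic entry, Cdk1, the kinase that drives mitosis, stood at 6.75 and 7.31 in knockout at day 0 and at 10.44 and 10.15 at day 6, a change of 3.27 ± 0.24 (SE). Ccnb2, which encodes cyclin B2, went from 7.06 and 7.62 to 10.71 and 10.63, a change of 3.33 ± 0.21 (SE) or 10.1-fold (limma adjusted p = 0.000465). For both genes the gap between days was several times the gap between replicates. The cyclin A2 gene Ccna2 rose 8.52-fold. Foxm1, which encodes a transcription factor of late cell cycle genes, had 6.02 and 6.44 at day 0 and 8.24 and 8.32 at day 6 (change 2.05 ± 0.33 (SE), adjusted p = 0.00815). Its rise was the smallest of the 4 in this role.

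The promoters of these genes are known for a pair of sequence elements, the cell cycle genes homology region (CHR), which MuvB complexes bind, and the CCAAT box, which the factor NF-Y binds. RefSeq promoter sequences (GRCm38.p6) were matched by symbol for 36 of the 43 genes, and not for Aurkb, Ccna2, Dlgap5, Foxm1, Kif20a, Pbk and Tpx2. They are shown as background on the set, which was chosen by name, and were not related to the changes of the genes. In the 250 bases before the start, the CHR core TTTGAA stood on either strand in 13 of the 36 genes (36.1%), against 18.3% of 27025 genes with a promoter. The letters CCAAT stood in 26 (72.2% against 37.5%), and both together in 11 (30.6% against 6.45%). In the 100 bases nearest the start the CHR core was found in 27.8% against 6.76%, and CCAAT in 63.9% against 21.6%. The CHR core and CCAAT can share at most 1 end base, and a match describes letters in this window, not binding. The 4 promoters below belong to Cdc20 (chr4:118437344-118437593, minus strand), Kif2c (chr4:117178773-117179022, minus strand), Prc1 (chr7:80294226-80294475, plus strand) and Cdk1 (chr10:69352913-69353162, minus strand). Each gives the 250 bases before the start, 5′ to 3′ on the gene's strand, with the CHR core and CCAAT, read on either strand, in capitals.
Cdc20: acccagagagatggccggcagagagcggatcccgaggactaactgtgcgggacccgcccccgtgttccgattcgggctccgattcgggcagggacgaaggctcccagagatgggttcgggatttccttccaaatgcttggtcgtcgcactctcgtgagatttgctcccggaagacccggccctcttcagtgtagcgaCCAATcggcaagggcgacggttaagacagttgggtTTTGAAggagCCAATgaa
Kif2c: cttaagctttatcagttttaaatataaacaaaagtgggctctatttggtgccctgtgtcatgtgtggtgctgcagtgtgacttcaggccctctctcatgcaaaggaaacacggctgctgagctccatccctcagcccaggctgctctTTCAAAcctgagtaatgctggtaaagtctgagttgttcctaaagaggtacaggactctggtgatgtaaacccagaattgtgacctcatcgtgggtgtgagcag
Prc1: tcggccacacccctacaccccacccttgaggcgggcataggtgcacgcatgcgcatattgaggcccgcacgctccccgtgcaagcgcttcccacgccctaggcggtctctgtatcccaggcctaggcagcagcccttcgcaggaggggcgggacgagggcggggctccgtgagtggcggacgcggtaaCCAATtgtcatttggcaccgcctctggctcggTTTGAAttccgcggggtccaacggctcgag
Cdk1: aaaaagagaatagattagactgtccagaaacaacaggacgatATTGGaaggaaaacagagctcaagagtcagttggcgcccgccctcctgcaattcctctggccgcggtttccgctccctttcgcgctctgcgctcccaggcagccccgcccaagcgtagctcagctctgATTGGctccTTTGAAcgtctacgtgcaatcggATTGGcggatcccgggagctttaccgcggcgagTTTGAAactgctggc

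In Cdc20 the CHR core began 18 bases before the start, with CCAAT 53 and 8 bases before it. Cdk1 had CHR cores 71 and 15 bases before the start and 3 CCAAT boxes on the opposite strand. Prc1 had its CHR core 30 bases before this start, 1 of 2 starts listed, while in Kif2c the core lay on the opposite strand 103 bases before the start and no CCAAT was in the window. In 8 other genes, Espl1, Kif11, Kif15, Top2a, Ube2c, Ncapg, Mki67 and Ccnb2, cores lay between 234 and 19 bases before the start. Ect2 had matches 138 and 114 bases before a start. These were pooled over its 2 listed starts and may be 1 core counted from each.

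**Figure D2:**
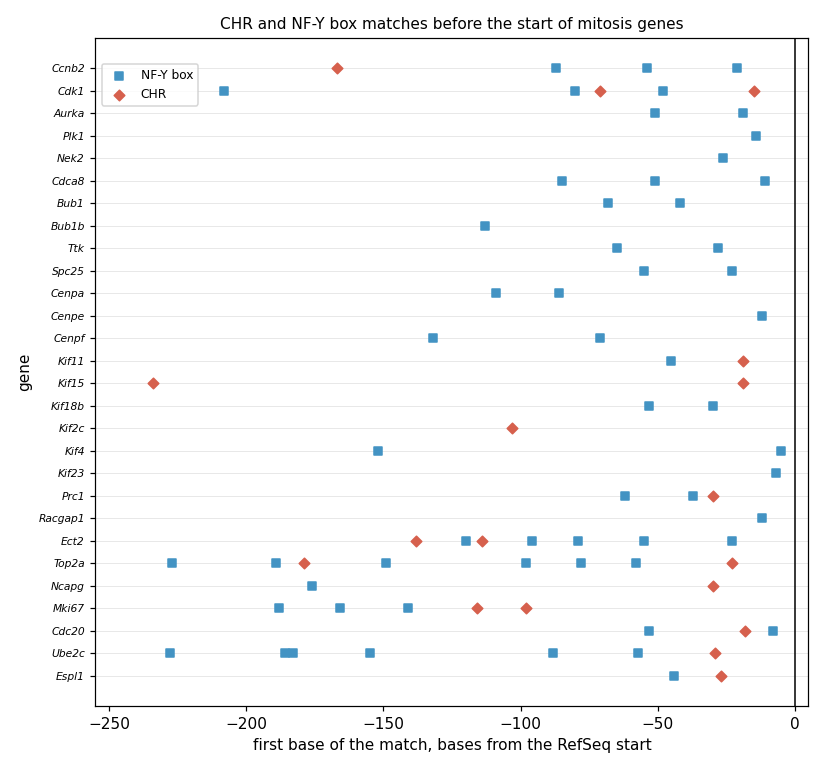
Rows are the mitosis genes with at least 1 match, and the horizontal axis is the distance in bases of the match's first base from the RefSeq start at 0; diamonds are CHR cores and squares NF-Y (CCAAT) boxes, on either strand. Prc1 and Ect2 have 2 starts each, drawn on the same row, so that 1 match can appear once for each start. Most CHR cores lie within 100 bases of the start.

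The other mitotic kinases rose in knockout as well. Plk1, a kinase of spindle assembly and mitotic exit, was at 6.03 and 6.24 at day 0 and 9.62 and 9.81 at day 6, up 11.9-fold. Pbk, a kinase of dividing cells, had 4.80 and 4.95 and then 7.88 and 7.75 (change 2.94 ± 0.20 (SE), adjusted p = 0.000501). Melk, a kinase under FoxM1 and E2F control, moved from 4.82 and 5.28 to 8.18 and 8.42. Aurka, the spindle pole kinase, rose least of these with 1.91 ± 0.40 (SE), from 6.77 and 6.14 to 8.18 and 8.55. Nek2, a kinase that separates centrosomes, rose 6.12-fold. The chromosomal passenger complex, which corrects chromosome attachment, has 3 genes in the set, and all 3 rose. Its kinase gene Aurkb went from 6.66 and 6.61 to 10.03 and 9.98, a 10.4-fold rise, and Birc5, which encodes survivin, from 5.63 and 5.30 to 7.60 and 7.70, a 4.55-fold rise. Cdca8, which encodes borealin, rose 6.16-fold.

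The checkpoint that delays anaphase until chromosomes are attached held the largest fitted change of the set. Bub1, a checkpoint kinase, was at 5.01 and 4.98 in knockout at day 0 and 8.55 and 8.71 at day 6, a change of 3.64 ± 0.27 (SE) from values below the array medians at day 0. Mad2l1, which encodes Mad2, an inhibitor of the anaphase-promoting complex, was at 6.82 and 6.76 and then 9.95 and 9.62 (change 2.99 ± 0.17 (SE)). Ttk, the kinase that starts checkpoint signalling, had a smaller change of 1.68 ± 0.39 (SE), with 5.63 and 6.005 against 7.52 and 7.47, and Bub1b, which encodes the checkpoint protein BubR1, rose 8.16-fold.

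Kinetochore genes rose by a median of 2.28. Cenpa, the histone variant that marks centromeres, rose 7.5-fold, and Cenpf went from 5.56 and 5.54 to 7.38 and 7.65. Ndc80, the microtubule-binding subunit of the kinetochore complex named after it, was at 5.13 and 5.22 at day 0 and 6.91 and 6.87 at day 6 (change 1.72 ± 0.19 (SE)). Nuf2, its partner, was at 5.10 and 5.11 and then 7.46 and 7.56 (change 2.41 ± 0.23 (SE)). For both genes the knockout day 6 arrays lay above those of day 0, as for all 43 and for 42.2% of all genes. Spc25, a subunit of the same complex, was at 4.85 and 4.49 at day 0, among the lowest values of the set, and 6.82 and 6.81 at day 6. Cenpe, a kinetochore motor, rose 8.08-fold with a wide error (3.01 ± 0.68 (SE), adjusted p = 0.0266). RMA can compress low values, so folds of genes that were dim at day 0 may be understated, which was not tested.

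Among the motors and spindle proteins the changes in knockout lay between 2.06 (Kif4, a chromosome-arm motor and the only member on the X chromosome) and 3.03 (Kif2c, which takes microtubules apart at the kinetochore). Kif11, the motor that separates spindle poles, changed by 2.59 ± 0.27 (SE), and Tpx2, which activates Aurora A on the spindle, by 2.88 ± 0.47 (SE). The motor genes Kif15 and Kif18b changed by 2.54 and 2.79, and the spindle microtubule genes Nusap1 and Dlgap5 by 2.55 and 2.72. Cytokinesis genes rose by 1.76 (Anln, an actin ring scaffold) to 3.27 (Kif20a, a motor of the midzone). In between were Prc1, which bundles midzone microtubules (2.36), Kif23 and Racgap1, which form the centralspindlin complex (2.10 and 2.76), and Ect2, which activates RhoA at the cleavage site (2.16).

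The genes of chromosome structure and anaphase closed the list. Top2a, the topoisomerase that untangles chromosomes, went from 6.99 and 7.42 to 9.92 and 9.82, a 6.33-fold rise. Its other probe set, dimmer and not used, had 2.94 and 3.13 at day 0 and 2.77 and 3.12 at day 6 in knockout, with no difference between the days beyond the replicates. Mki67, which encodes the proliferation antigen Ki-67, went from 7.61 and 7.65 to 9.86 and 10.26, a 5.4-fold rise. The condensin genes Ncapg and Ncaph rose 7.32-fold and 5.15-fold. Cdc20, the activator of the anaphase-promoting complex, was at 6.25 and 6.43 and then 8.53 and 9.46 (change 2.65 ± 0.36 (SE)). Espl1, which encodes separase, the protease that opens cohesin, was at 5.24 and 5.69 and then 6.53 and 6.96, a change of 1.28 ± 0.30 (SE). The knockout replicates were at most 0.778 apart at day 0 and 0.929 at day 6 for any of the 43 genes. Replicate 1 was the lower for 36 genes at day 0 (background 54%) and for 30 at day 6 (background 43.8%).

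Other cell types moved with the day change in knockout. Of 6 markers of wound-type keratinocytes, 4 rose in knockout, and their mean level was 9.02 and 10.48 at day 0 and 12.23 and 12.24 at day 6. All 5 adipocyte markers fell, from means of 10.86 and 10.45 to 5.36 and 6.54, as did all 5 muscle markers, from 12.40 and 12.14 to 9.69 and 10.26. Of 6 fibroblast markers 3 fell (means 11.91 and 11.93 against 9.53 and 10.57). Basal keratinocyte markers had means of 11.44 and 11.53 at day 0 and 11.07 and 11.19 at day 6, and of its 7 genes Krt15 alone fell and none rose. Of 12 hair matrix and growing hair markers Foxn1 alone rose and none fell (means 5.55 and 5.59 against 5.95 and 5.81). Of 4 T cell markers 1 rose and 2 fell, of 6 suprabasal keratinocyte markers 1 rose and 1 fell, and of 5 endothelial markers 1 rose. No macrophage or neutrophil marker passed. The part of such shifts in the mitosis result was not tested.

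In wild type, day 6 was compared with the single day 0 array (n = 2 against 1). No mitosis gene passed the threshold in either direction with limma, while 3.51% of all genes rose and 3.61% fell (7.11% together). An unadjusted p under 0.05 was found for 5 of the 43 genes, beside 4064 of all 19937. The median log2 change was 0.47 (range -0.48 to 1.49), with 33 genes above 0 and 10 below. Melk had the smallest p, with 6.995 at day 0 and 7.999 and 8.58 at day 6 (change 1.29 ± 0.32 (SE), adjusted p = 0.0595). Cdc20 had 7.60 and then 8.71 and 9.47 (change 1.49 ± 0.44 (SE), adjusted p = 0.105). Anln had 8.51 and then 9.15 and 9.91 (change 1.02 ± 0.33 (SE), adjusted p = 0.127). For 25 of 43 genes both day 6 arrays lay above the day 0 array, against 33.7% of all genes, and for 14 the day 0 array lay between them, against 31.5%. Without replicate 1 of wild type at day 6 the median was 0.90, and without replicate 2 it was 0.12. Of the 12 hair matrix and growing hair markers 10 fell in wild type, from a mean of 10.19 to 6.67 and 5.64. Of wound-type keratinocyte markers 5 of 6 rose (8.95 against 12.37 and 12.27), of basal keratinocyte markers 4 of 7 rose and 1 fell (10.46 against 10.92 and 11.05), and of neutrophil markers 2 of 6 rose (5.20 against 7.57 and 6.82). Of adipocyte markers 4 of 5 fell (9.80 against 6.49 and 5.85) and of muscle markers 3 of 5 (11.36 against 9.54 and 10.19). The part of these lists in the mitosis values was not tested.

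The wild-type changes varied from gene to gene. The 11 genes with a change of 0.9 or more were Foxm1, Aurka, Plk1, Melk, Cenpe, Kif18b, Kif4, Tpx2, Racgap1, Anln and Cdc20. The 10 genes whose day 6 mean lay below the day 0 array were Pbk, Bub1, Mad2l1, Ndc80, Kif11, Kif15, Nusap1, Top2a, Ncapg and Mki67. For Pbk, Mad2l1, Kif11 and Nusap1 both day 6 arrays lay below it, as they did for 34.8% of all genes. Mad2l1, for example, was at 10.13 at day 0 and 9.96 and 9.98 at day 6. These groups were drawn up after the values were seen and are a description.

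**Figure D3:**
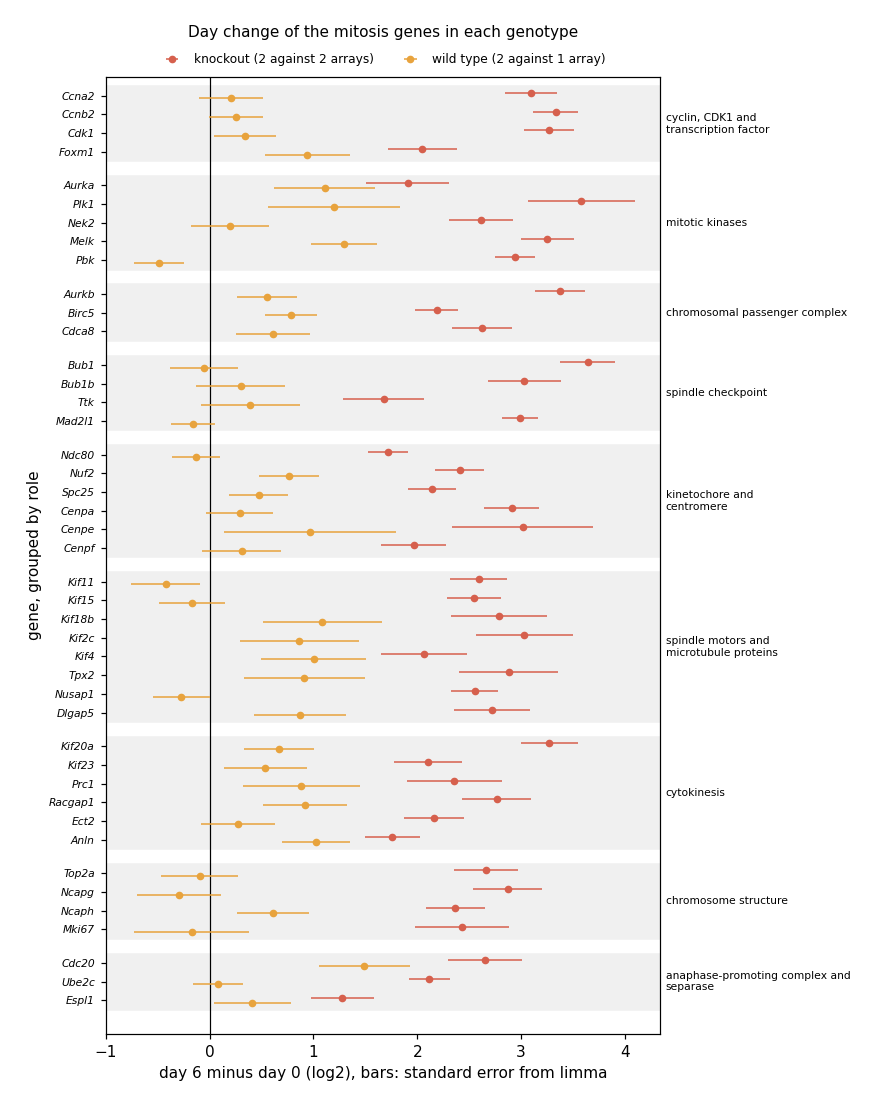
Points are the log2 difference, day 6 minus day 0, of each mitosis gene in knockout (red) and in wild type (yellow), with standard errors from limma as bars. The red points lie between 1.28 and 3.64 and the yellow ones between -0.48 and 1.49.

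The next comparison set knockout against wild type at day 0 (n = 2 against 1). Of the 43 genes 27 were lower in knockout at a limma adjusted p under 0.05 and none was higher, while 5.86% of all genes were lower and 8.53% higher (14.4% together). The median log2 difference, knockout minus wild type, was -1.89 (range -3.76 to -0.61), beside -0.093 over all genes. Mad2l1 was at 6.82 and 6.76 in knockout and 10.13 in wild type, 10.1-fold lower (adjusted p = 0.000401). Pbk was at 4.80 and 4.95 against 7.995, 8.69-fold lower (adjusted p = 0.000992). Ccnb2 was at 7.06 and 7.62 against 10.44, 8.6-fold lower (adjusted p = 0.00136). Foxm1 (6.02 and 6.44 against 6.94) and Kif4 (5.42 and 5.56 against 6.16) were among the 16 that did not pass.

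All 12 hair matrix and growing hair markers were also lower in knockout at day 0. Krt71, a keratin of the inner root sheath, was at 5.41 and 5.24 in knockout and 12.72 in the wild-type array. Lef1, a Wnt factor of the hair matrix, was at 5.01 and 5.07 in knockout against 8.36. On the other wild-type arrays, of day 6, Krt71 was at 7.73 and 5.25. Basal keratinocyte markers went the other way, with means of 11.44 and 11.53 in knockout and 10.46 in that array (3 of 7 higher in knockout). Fibroblast markers had 11.91 and 11.93 against 10.32 (3 of 6 higher) and endothelial markers 9.10 and 9.16 against 7.90 (2 of 5 higher). Adipocyte markers had 10.86 and 10.45 against 9.80 (1 of 5 higher). Of muscle and suprabasal keratinocyte markers 1 of 5 and 1 of 6 were higher, and none of the wound-type keratinocyte, T cell, macrophage and neutrophil lists passed. The part of these markers in the mitosis difference was not tested. Genotype at day 0 cannot be told apart from the Xist split or from what is particular to that 1 array.

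Set beside the knockout day 6 mean, the wild-type day 0 array was at or above it for 11 of the 43 genes and within 0.5 (log2) of it for 17. Nusap1, a spindle microtubule protein, stood at 8.97 in that array and at 8.34 and 8.72 in knockout at day 6, and Bub1 at 8.75 against 8.55 and 8.71. Other genes were well under the day 6 level there: Cenpe was at 5.74 against 7.35 and 7.99, Plk1 at 7.90 against 9.62 and 9.81 and Cdc20 at 7.60 against 8.53 and 9.46. Across the 43 genes the distance of that array from the knockout day 6 mean ran from -1.93 (Cenpe) to 0.44 (Nusap1).

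**Figure D4:**
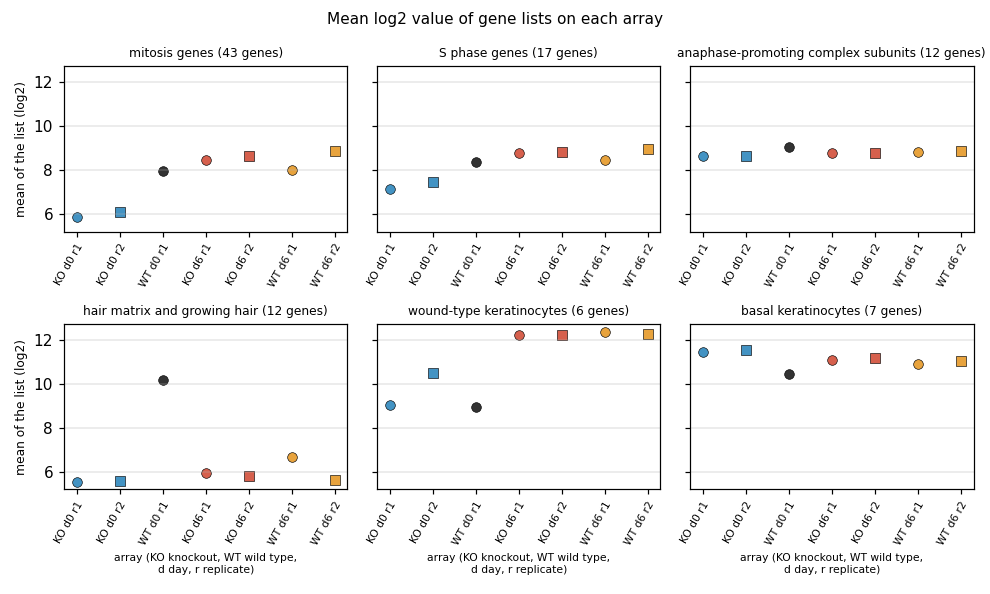
Each panel gives the mean log2 value of a gene list (vertical axis) on each of the 7 arrays (horizontal axis), coloured by genotype and day. The mitosis mean of the wild-type day 0 array (7.95) is close to that of replicate 1 of wild type at day 6 (7.98), and the hair list reaches 10.19 on the wild-type day 0 array alone.

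At day 6 knockout and wild type were compared with 2 arrays each. No mitosis gene differed by limma, and none had an unadjusted p under 0.05; over all genes none passed, and 1182 had an unadjusted p under 0.05, so that 0% were called. The median log2 difference, knockout minus wild type, was 0.12 (range -0.52 to 0.96). Spc25 had the smallest p, with 6.82 and 6.81 in knockout and 7.05 and 7.61 in wild type (difference -0.52 ± 0.23 (SE), adjusted p = 0.801). Mki67 had 9.86 and 10.26 in knockout against 8.37 and 9.89 in wild type (difference 0.93 ± 0.45 (SE), adjusted p = 0.805). Cenpf, a large kinetochore protein gene, had 7.38 and 7.65 against 6.41 and 7.39 (difference 0.61 ± 0.31 (SE), adjusted p = 0.812). For both Mki67 and Cenpf the lower knockout array lay between the wild-type arrays, so the genotypes overlapped, while for Spc25 both knockout arrays lay below them. A median standard error of 0.29 limits what this comparison can show, and equal levels are not shown by it.

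The wild-type replicates of day 6 differed in the same direction throughout. Replicate 1, the array with Xist signal, was below replicate 2 for all 43 genes, against 41.8% of all genes, by a median of 0.84 on the log2 scale (range 0.018 to 2.36) and by more than 1 for 13 genes. It was the lowest of the 4 day 6 arrays for 34 genes (background 29.3%), and replicate 2 was the highest for 37 (background 14.8%). Both knockout arrays lay above both wild-type arrays for Pbk alone (background 15.9%) and below both for Mad2l1, Spc25 and Cenpa (background 15.7%). For 28 genes both knockout arrays lay between the wild-type arrays (background 23.5%). Cenpe was at 5.53 and 7.88 and Plk1 at 8.20 and 9.999 in replicates 1 and 2, while Mad2l1 was at 9.96 and 9.98. Without replicate 1 the median difference between genotypes was -0.29, and without replicate 2 it was 0.55, with none of the 43 passing in either case. Replicate 1 also had a higher mean of the hair markers (6.67 against 5.64), with Krt71 at 7.73 against 5.25. Of these markers Foxn1 (7.57 against 8.59) and Dlx3 went the other way and were lower in replicate 1. In replicate 1 the fibroblast mean was lower as well (8.92 against 9.95). So were the muscle (9.54 against 10.19), endothelial (8.06 against 8.57) and suprabasal keratinocyte means (10.21 against 10.66). Its neutrophil (7.57 against 6.82) and adipocyte means (6.49 against 5.85) were higher. Whether these lists had a part in the mitosis values was not tested.

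Whether the day change differed between genotypes was tested as knockout change minus wild-type change. Of the 43 genes 16 had a larger change in knockout at a limma adjusted p under 0.05 and none a smaller one, while 1.76% of all genes had a larger change and 1.35% a smaller one (3.1% together). The median of the differences was 2.01 (range 0.73 to 3.69). Mad2l1 (3.15 ± 0.27 (SE), adjusted p = 0.00294), Pbk (3.42 ± 0.31 (SE), adjusted p = 0.00352) and Ccnb2 (3.08 ± 0.34 (SE), adjusted p = 0.00815) had the smallest p. For these 3, as for all 43, the knockout day 0 arrays lay below all other arrays. The test shares that day 0 array with the comparison of genotypes at day 0. Leaving out arrays in turn changed the count, as it did over all genes, and gave medians of 1.56 to 2.46.

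Over both genotypes, in an additive fit of day and genotype (3 arrays against 4), 20 of the 43 genes rose and none fell, while 5.85% of all genes rose and 5.62% fell. The median change was 1.66 (range 0.93 to 2.62). This fit takes the day change to be the same in both genotypes, so a difference between them adds to its standard errors. For Cdk1 the SE was 0.58 here and 0.24 for the knockout change. The order by p therefore also depends on how far the genotypes differed. The 6 genes with the smallest p were Cdc20 (2.19 ± 0.35 (SE), adjusted p = 0.0128), Anln (1.46 ± 0.24 (SE)), Melk (2.47 ± 0.41 (SE)), Birc5 (1.62 ± 0.30 (SE)), Nuf2 (1.75 ± 0.35 (SE)) and Foxm1 (1.61 ± 0.33 (SE)). For these 6 the lowest day 6 array lay above the highest day 0 array, as it did for 23 of the 43 and 11.9% of all genes. Aurkb (2.25 ± 0.56 (SE), adjusted p = 0.0478) was near the threshold, and Cdk1 (2.10 ± 0.58 (SE), adjusted p = 0.0639), Top2a (1.56 ± 0.57 (SE)) and Mki67 (1.39 ± 0.60 (SE)) did not pass. The other 13 that rose were Racgap1, Aurka, Dlgap5, Kif18b, Plk1, Kif4, Ncaph, Kif20a, Cdca8, Spc25, Tpx2, Kif2c and Prc1. The smallest changes were those of Espl1 (0.93), Ndc80 (0.98) and Ttk (1.16), which did not pass. Without the wild-type day 0 array the fit takes the day change from knockout alone and gives that result again (43 genes, median 2.62). The count depended on other single arrays as well, and so did the number called over all genes. The median was 1.497 and 1.567 without replicates 1 and 2 of knockout at day 0. Without those of knockout at day 6 it was 1.565 and 1.497, and without those of wild type at day 6 it was 1.966 and 1.651.

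Genes of the same pathway outside the set were read from lists of other cell cycle genes, in knockout first, with limma over all genes. Of 28 other kinetochore and checkpoint genes 21 rose and none fell (median 1.44); Mad1l1, a partner of Mad2 at kinetochores, changed by 1.91 ± 0.18 (SE) and the centromere genes Cenpm and Cenpo by 2.58 ± 0.32 (SE) and 1.09 ± 0.23 (SE). Of 23 other spindle and cytokinesis genes 18 rose and none fell (median 2.01), among them Tacc3 (2.36), a spindle microtubule protein, Incenp (2.45), the scaffold of the passenger complex, and Ckap2l (2.19). Of 16 regulators of mitotic entry and exit 9 rose and none fell, including the phosphatase gene Cdc25b (1.48), which activates Cdk1, Ccnf (2.25) and Fzr1 (0.89), a later activator of the anaphase-promoting complex. Of the 12 core subunits of that complex only Anapc4 rose (0.92 ± 0.17 (SE)) and none fell, with a median of 0.14, and Anapc13 and Anapc5 stood at -0.73 and -0.39; its activator and ubiquitin-conjugating enzyme, Cdc20 and Ube2c, changed by 2.65 and 2.12. Of 16 other condensin and cohesin genes 7 rose and none fell (median 0.39), with the condensin genes Ncapd2 and Smc2 at 1.83 and 2.18 and Cdca5, which encodes the cohesin protector sororin, at 2.53. In wild type, against the single day 0 array, Cdc25b (1.31) and Mad1l1 (1.79) alone rose among the genes of these 5 lists, and the cohesin genes Stag2 (-0.96) and Esco2 (-0.88) fell.

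Upstream of mitosis, 6 of 22 genes of the MuvB, E2F, pocket protein and NF-Y group rose in knockout and none fell (median 0.29). E2f7 and E2f8, which encode repressors of the E2F family, changed by 2.66 ± 0.44 (SE) and 2.48 ± 0.56 (SE), and Mybl2, which encodes B-Myb, by 2.52 ± 0.26 (SE). Of 8 G1 cyclins and kinases 4 rose and 1 fell: Ccnd1 changed by 0.76 ± 0.18 (SE), Ccnd2 by -1.38 ± 0.25 (SE) and Cdk6 by 1.19 ± 0.42 (SE), which did not pass (adjusted p = 0.109). Over both genotypes Cdk6 rose by 1.62 ± 0.38 (SE) (limma adjusted p = 0.0399). In wild type, against the single day 0 array, 1 of the 22 genes rose and 1 fell, and 2 of the 8 rose and 1 fell. The shares of all genes there were 3.51% and 3.61%. None of 6 CDK inhibitor genes passed in knockout (median 0.24, 1 with an unadjusted p under 0.05); Cdkn1c, which encodes p57, changed by -0.60 ± 0.17 (SE) (adjusted p = 0.0568), and Cdkn2c and Cdkn2d by -0.33 and 0.18. Of 17 S phase genes 15 rose in knockout and none fell (median 1.54), with Rrm2, a ribonucleotide reductase subunit, at 2.58 ± 0.25 (SE), the helicase gene Mcm4 at 1.71 ± 0.29 (SE) and the licensing gene Cdt1 at 1.25 ± 0.32 (SE). Their mean was 7.12 and 7.45 in knockout at day 0, 8.34 in wild type at day 0 and 8.43 to 8.97 on the day 6 arrays. The order of the arrays was thus that of the mitosis genes, with no test of a difference between the lists.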

How the data were processed

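Per the labels' protocols, tissue was macerated, RNA came from an RNeasy kit, and a MessageAmp III kit gave biotin-labelled targets. The deposited values are log2 expression values; RMA and R 2.11.1 are named in the submitters' processing notes, and the log2 scale was read from the range of 2.37 to 13.38. Other RMA settings are not given in the sources used here. The number of arrays limits the precision.

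Groups came from sample titles. Of 34760 probe sets, 21640 had 1 gene symbol in the platform's table, 1321 several and 11799 none; for each gene the probe set that names it alone, with the highest mean over the 7 arrays, was used (19937 genes, 43 of 44 listed). Each difference had a two-sided test by lmFit and eBayes of limma 3.58.1 under R 4.3.3, with Benjamini-Hochberg adjustment over all 19937 genes at a threshold of 0.05. The day change over both genotypes came from an additive fit (4 residual degrees of freedom), the other comparisons from 4 group means (3), where the lone wild-type day 0 array is assumed to vary like the other groups. The procedure was checked on simulated data with independent values. These had no Xist split and no lone array that stood apart, so the check does not cover those features.

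The members, the other lists and the tests were chosen with earlier results of these data known. Array-by-array values are given for Cdk1, Cdc20, Birc5, Foxm1, Mki67, Top2a and Aurkb, for the 6 members with the smallest p and the 3 with the smallest change over both genotypes, and for the 3 with the smallest p in each other comparison. Other members and markers with such values were chosen after their values were seen. From each other cell cycle list the 3 genes with the smallest p over both genotypes were named. Promoters, 250 bases before the start, came from RefSeq (GRCm38.p6); printed are the first 4 members by p over both genotypes with a CHR core. Alternatives were other scalings, variance models, filters, probe set choices, a replicate block, a term for Xist signal and leaving out arrays.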

Additional observations from a re-analysis of the deposited data

Results flagged for a closer look

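For 16 of the 43 mitosis genes the day change was larger in knockout than in wild type by a limma test of the difference itself. Of all genes 1.76% had a larger change in knockout by that test and 1.35% a smaller one. The differences, knockout change minus wild-type change on the log2 scale, were 2.88 for Ccna2, 3.08 for Ccnb2, 2.92 for Cdk1, 3.42 for Pbk, 2.82 for Aurkb and 3.69 for Bub1. They were 3.15 for Mad2l1, 1.85 for Ndc80, 2.62 for Cenpa, 3.02 for Kif11, 2.71 for Kif15 and 2.82 for Nusap1. They were 2.60 for Kif20a, 2.76 for Top2a, 3.17 for Ncapg and 2.04 for Ube2c. For Pbk, Mad2l1, Kif11 and Nusap1 both knockout arrays of day 6 lay above those of day 0 while both wild-type arrays lay below the wild-type day 0 array. Taken singly, the knockout order was met by 42.2% of all genes and the wild-type order by 34.8%. All the differences given here rest on 1 wild-type day 0 array, the array with the highest hair marker mean.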

How the results depend on the processing

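For knockout the day change held under every setting run, with 36 to 43 of the 43 genes past the threshold and a median of 2.49 to 2.74. Over both genotypes 20 genes passed as reported; 9 did with array medians subtracted, 8 with all probe sets tested, 4 with a term for Xist signal, and 40 from the mean of the within-genotype changes. Without both wild-type arrays with Xist signal no wild-type day 0 array is left, so that the knockout change comes back (43 genes, median 2.62). Leaving out each array changed the number called among the members and over all genes, with medians of 1.497 to 2.62. The highest of these medians is again the knockout change alone. The Top2a change over both genotypes was 1.56, and 0.75 with the mean of its 2 probe sets. In wild type 0 genes passed as reported and 1 after quantile normalization; leaving out arrays gave 0 to 15, with medians of 0.12 to 0.90. At day 0, 27 genes differed as reported and 20 to 37 with an array left out; the median was -2.85 with a term for Xist signal. At day 6 none passed as reported or under other scalings, variance models, filters and probe set choices. The median was -0.29 to 0.55 with an array left out. Except between genotypes at day 0, the term for Xist signal only repeats such a fit, though it is counted as a separate setting. At day 6 it repeats leaving out replicate 1 of wild type (median -0.29), as does leaving out both arrays with Xist signal. In the wild-type, both-genotype and difference fits it repeats leaving out replicate 2 of wild type at day 6. The genotype difference in day change had 16 genes as reported, 8 with array medians subtracted and 31 with a term for Xist signal (median 2.46), and 6 to 31 with an array left out (medians 1.56 to 2.46). Replicates shared only a number: deviations of same-numbered arrays correlated at 0.037 to 0.227 across genes, too low to pair them. With the replicate number as a block, 5 genes passed over both genotypes, 43 in knockout, 1 in wild type, 35 between genotypes at day 0, 0 at day 6 and 21 for the difference in day change. Among 443 repeats of the 28 results for single genes, 34 lost and 23 gained the threshold and 0 changed direction.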
